A study of Homo sapiens with 3 samples.

Results

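Drosha- or Dicer-independent miRNAs are made without one of the 2 enzymes that cut ordinary miRNA hairpins. The 9 members described here were chosen by name: hsa-miR-320a, hsa-miR-320b, hsa-miR-320c, hsa-miR-320d, hsa-miR-320e, hsa-miR-484, hsa-miR-877-5p, hsa-miR-1226-3p and hsa-miR-451a. They stood among 2580 endogenous mature miRNAs in the table, which listed 2590 mature miRNAs in all once the synthetic entries were counted.

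Small RNA of Flp-In T-REx 293 cells, which descend from HEK293, an embryonic kidney line of human origin, was sequenced with 1 library for each of 3 groups. The control cells carried the lentiviral vector without a hairpin, the miR-1 cells carried a miR-1 hairpin in the intron of a doxycycline-inducible GFP cassette, and the miR-122 cells carried a miR-122 hairpin at the same place. Geneticin at 1 mg/mL was applied to all 3 lines for 6 days to select transduced cells, and doxycycline at 1 ug/mL followed over 7 days, also in the control. With 1 library a group no spread between cultures could be estimated, so every comparison below is between libraries, is given with an interval for counting error and carries no p-value.

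In the ordinary route, Drosha with its partner DGCR8 crops a hairpin out of the primary transcript in the nucleus, and Dicer removes the loop in the cytoplasm before a strand enters an Argonaute protein. The members leave that route at different points. The miR-320 and miR-484 precursors are the textbook cases of hairpins made directly as short capped transcripts, without Drosha. The mirtrons, miR-877 and miR-1226, are short introns that the spliceosome cuts out and that fold into a hairpin for Dicer. The miR-451 hairpin is cropped by Drosha but is too short for Dicer, and it is sliced by Argonaute 2 and then trimmed. It is known as a miRNA of red blood cell precursors. These routes are background and were not assayed in the libraries, and for miR-320b to miR-320e, which come from other loci than miR-320a, the class was taken from the name.

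Mature sequences were taken from RefSeq (GRCh38.p14), in which 7 of the 9 names matched. The miR-320 sequences are shown because they overlap so closely that reads are shared among them, and the others because they show how unlike the remaining members are. Capitals mark the seed, bases 2 to 8, which pairs with targets.
hsa-miR-320b: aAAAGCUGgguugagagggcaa
hsa-miR-320c: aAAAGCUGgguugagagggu
hsa-miR-320d: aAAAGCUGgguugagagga
hsa-miR-320e: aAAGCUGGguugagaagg
hsa-miR-484: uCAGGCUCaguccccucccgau
hsa-miR-877-5p: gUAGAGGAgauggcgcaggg
hsa-miR-1226-3p: uCACCAGCccuguguucccuag

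miR-320b, miR-320c and miR-320d share the seed AAAGCUG and shorten from 22 to 20 to 19 nt. Counted from 1 at the 5′ end of miR-320b, miR-320c differed from it by C20U and miR-320d by G19A. miR-320e, of 18 nt, began 1 base later, which shifts its seed to AAGCUGG, and carried G17A in the numbering of miR-320b. The GC content of the miR-320 sequences lay between 47.4 and 50%, against 63.6% for miR-484, 65% for miR-877-5p and 59.1% for miR-1226-3p. No seed was shared between miR-484, miR-877-5p, miR-1226-3p and the miR-320 family.

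The hairpins of the mirtrons are shown because their ends are those of an intron. Capitals mark the first and last 2 bases, GU at the 5′ end and AG at the 3′ end, the letters at which the spliceosome cuts. The miR-484 hairpin is set beside them as one without these ends.
MIR877: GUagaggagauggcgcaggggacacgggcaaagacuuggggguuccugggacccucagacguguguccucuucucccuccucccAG
MIR1226: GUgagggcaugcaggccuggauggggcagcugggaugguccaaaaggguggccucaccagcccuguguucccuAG
MIR484: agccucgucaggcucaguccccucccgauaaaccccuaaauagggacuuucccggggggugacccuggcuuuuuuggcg

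Of 1560 RefSeq hairpins, 36 (2.31%) began with GU and ended with AG. The 5′ arm miR-877-5p starts with the first base of its hairpin, and the 3′ arm miR-1226-3p ends with the last base of its own. In the GENCODE annotation carried over to GRCh37, MIR877 covered a whole intron of ABCF1 on chromosome 6, from 30552109 to 30552194 on the plus strand. MIR1226 likewise covered a whole intron of DHX30 on chromosome 3, from 47891045 to 47891119. A whole intron was matched by 19 of 3049 annotated miRNA genes (0.623%), and by 14 of the 14 annotated genes of the mirtrons listed here. Since a mirtron is such an intron, the latter count was fixed by the list and is not a result.

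MIR484 lay on chromosome 16, from 15737151 to 15737229 on the plus strand, within an exon of NDE1 and 27 bases from an annotated start of that gene. The exon belongs to 1 annotated transcript of that gene. Whether this position bears on the capped route was not tested. The miR-320 family, in contrast, is spread over several chromosomes. MIR320B1 (117214371 to 117214449, plus strand) and MIR320B2 (224444706 to 224444843, minus strand, in an intron of NVL) were on chromosome 1, and MIR320E (47212550 to 47212602) was in an intron of PRKD2 on chromosome 19. MIR320D1 was on chromosome 13 (41301964 to 41302011) and MIR320D2 on chromosome X (140008337 to 140008384).

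MIR320A lay on chromosome 8, from 22102475 to 22102556 on the minus strand, 90 bases before the nearest annotated start of POLR3D, a subunit of RNA polymerase III that is read from the opposite strand. MIR320C1 (19263471 to 19263558) and MIR320C2 (21901650 to 21901699) were on chromosome 18. The other miR-320 genes lay further from the nearest annotated coding start than MIR320A. The distances were 3994 bases for MIR320B1, 10992 for MIR320B2, 18976 for MIR320C1 and 10154 for MIR320C2. They were 21738 bases for MIR320D1, 76375 for MIR320D2 and 4678 for MIR320E. In all, 11 of 12 gene names of the members were found in the annotation.

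The libraries held 1636834 (control), 2892684 (miR-1) and 2577292 (miR-122) miRNA counts. Of these, 0.0216%, 38.1% and 24.4% were assigned to synthetic entries, almost all in the latter libraries to miR-1-3p (1100840 counts) and miR-122-5p (627576 counts). Endogenous counts came to 1636481, 1791702 and 1947669. Levels below are endogenous RPM, the counts of a miRNA divided by the endogenous counts of its library and scaled as RPM values are, on which 1 count is worth 0.611, 0.558 and 0.513 RPM, and 3 counts, the limit that a count of 0 allows, are worth 1.83, 1.67 and 1.54 RPM. Ratios are TMM-scaled, with a 95% exact interval from the counts. The reads carried no molecular identifiers, so intervals and limits cover counting error only.

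By counts, miR-320a and miR-484 led the class in every library. How evenly different sequences were captured in the libraries was not tested, so the order of members is one of counts. miR-320a held 7021 counts in the control, 8199 in the miR-1 and 10095 in the miR-122 library, or 4290, 4576 and 5183 endogenous RPM. It ranked 39, 38 and 36 among endogenous miRNAs. miR-484 held 5638, 5478 and 5496 counts, or 3445, 3057 and 2822 endogenous RPM, and ranked 46, 48 and 49. The level of miR-320a lay above that of miR-484 in all 3 libraries.

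miR-320b and miR-877-5p followed at levels more than 10-fold lower. miR-320b held 325, 379 and 331 counts in the libraries of the control, miR-1 and miR-122 cells (199, 212 and 170 endogenous RPM). miR-877-5p, from the ABCF1 intron, held 354, 413 and 395 counts (216, 231 and 203 endogenous RPM). The order of this pair was the same in each library, but the levels lay close together, and miR-877-5p ranked 169, 161 and 169 against 177, 166 and 183 for miR-320b. miR-320c came next, with 88.3, 66.8 and 77.4 counts (53.9, 37.3 and 39.8 endogenous RPM).

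The remaining members were near the limit of these libraries. miR-1226-3p, from the DHX30 intron, held 14, 15 and 16 counts (8.55, 8.37 and 8.21 endogenous RPM), and miR-320d held 12.3, 16 and 10.4 counts (7.50, 8.93 and 5.35 endogenous RPM). Neither order nor level told this pair apart at such counts. miR-451a held 4, 1 and 10 counts (2.44, 0.558 and 5.13 endogenous RPM), so that in the miR-1 library it lay under the limit that a count of 0 allows. miR-320e had 0 counts in all 3 libraries.

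**Figure D1:**
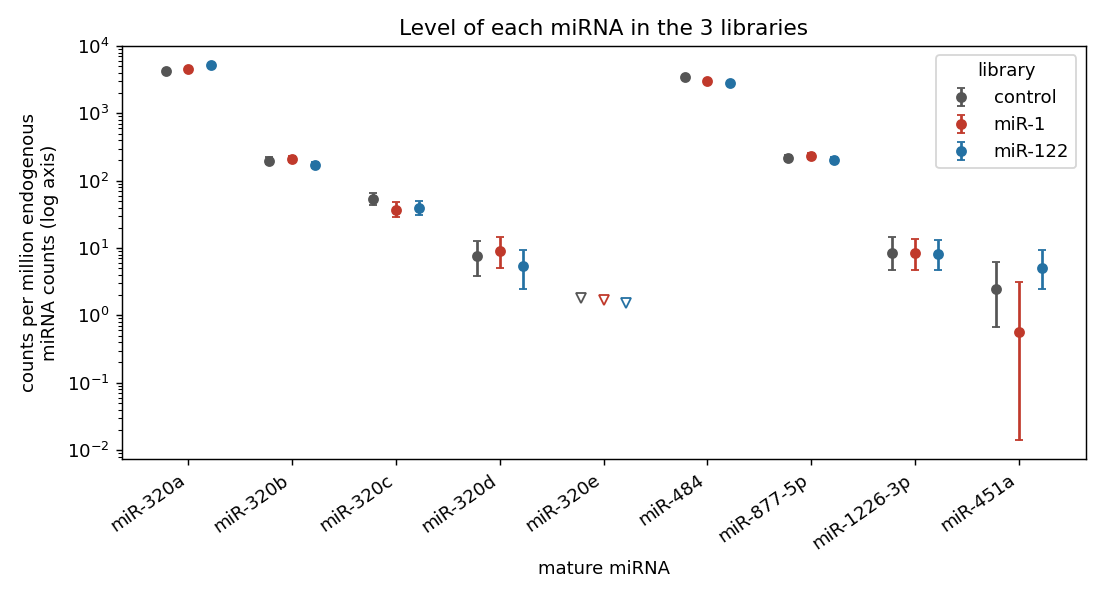
Level of each member in each library (control, miR-1 and miR-122), 1 point per library, in endogenous RPM on a log axis, with 95% Poisson intervals for counting error. miR-320a (4290, 4576 and 5183) and miR-484 (3445, 3057 and 2822) stand above the others, miR-1226-3p and miR-320d lie below 10, and miR-320e had no count in any library.

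Together the 9 members took 0.822% of endogenous counts in the control (95% Wilson interval 0.809 to 0.836), 0.813% in the miR-1 library (0.800 to 0.826) and 0.844% in the miR-122 library (0.831 to 0.857). The miR-1 and control intervals overlapped, and so did those of the miR-122 and control libraries, but not those of the miR-122 and miR-1 libraries. Overlap of separate intervals does not show that shares were equal. On the TMM scale the sum of the members was at log2 0.13 (0.10 to 0.16) for miR-122 to control, an interval without equal levels. Over all miRNA counts, with the induced miRNAs in the denominator, the shares were 0.822, 0.504 and 0.638%. The miR-320 family alone made up 0.455, 0.483 and 0.540% of endogenous counts.

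The miR-320 family was 1.09-fold higher in the miR-1 than in the control library (log2 0.12, interval 0.08 to 0.17) and 1.26-fold higher in the miR-122 than in the control library (log2 0.34, interval 0.30 to 0.38) on the TMM scale. Both directions turned to -0.60 and -0.16 when libraries were scaled by all miRNA counts, induced miRNAs included, a scaling that moved the median of the 514 endogenous miRNAs whose counts averaged 10 or more to -0.73 and -0.53. The miR-122 library was 1.16-fold higher than the miR-1 library (log2 0.21, interval 0.17 to 0.26).

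miR-320a carried that difference. Its log2 ratio was 0.13 (0.08 to 0.18) for miR-1 to control, 0.36 (0.32 to 0.41) for miR-122 to control and 0.23 (0.19 to 0.28) for miR-122 to miR-1, and the first 2 became -0.60 and -0.13 with the induced miRNAs in the scaling. Of the 514 endogenous miRNAs, 65.6% lay below it in the first comparison, 78.0% in the second and 73.7% in the third, so it stood above the middle but inside the bulk in each.

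The scarcer variants followed miR-320a only in part. miR-320b was at 0.13 (-0.09 to 0.35) for miR-1 to control and -0.13 (-0.36 to 0.09) for miR-122 to control, and at -0.26 (-0.48 to -0.04) for miR-122 to miR-1. miR-320c was at -0.49 (-0.97 to -0.01), -0.35 (-0.81 to 0.11) and 0.15 (-0.36 to 0.63). For miR-320b only the interval of the last comparison, and for miR-320c only that of the first, excluded equal levels. Neither call held throughout: miR-320b became -0.03 (-0.25 to 0.19) with the induced miRNAs in the scaling and -0.26 (-0.57 to 0.05) when only its highest hairpin was counted, and miR-320c became -0.51 (-1.24 to 0.13) with its highest hairpin and -0.46 (-0.93 to 0.02) when the scaling used miRNAs averaging 100 or more counts. Counting only the highest hairpin leaves out the reads given to the other one. That alone widens the interval, and both values hardly moved in that setting. The ratios of miR-320d, 0.28 (-0.85 to 1.53), -0.39 (-1.79 to 0.91) and -0.66 (-2.05 to 0.48), had intervals wider than any difference seen in the family. With the induced miRNAs in the scaling, the miR-1 to control values of miR-320b and miR-320d turned to -0.60 and -0.45, against the median of -0.73.

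The makeup of the family does not depend on the scaling of libraries. miR-320a was 94.3% of family counts in the control, 94.7% in the miR-1 and 96.0% in the miR-122 library, miR-320b was 4.37, 4.38 and 3.15%, miR-320c 1.19, 0.771 and 0.736%, and miR-320d 0.165, 0.185 and 0.0991%. The ratio of miR-320b to miR-320a in the miR-122 library was 0.708 of that in the control (interval 0.606 to 0.828), whereas in the miR-1 library it was 0.999 of it (0.858 to 1.16). The ratio of miR-320c to miR-320a was 0.652 of the control's in the miR-1 library (0.474 to 0.897) and 0.609 of it in the miR-122 library (0.448 to 0.828). For miR-320e, 0 counts allow a share of the family of at most 0.0516, 0.0443 and 0.0365% (upper 95% Wilson bounds). These bounds cover counting error only. miR-320e has 18 nt and reads under 18 nt were dropped, so any shorter read of it was lost.

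These family values rest on divided reads. Of the 12 hairpin rows of the members, the 7 of miR-320a to miR-320d held fractional counts, since a read matching several hairpins was split among them. Hence the nearly equal values of the miR-320b hairpins in the control, 162 and 164 counts, cannot be assigned to a locus, and a read that ends before the bases that tell the variants apart is shared between them.

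miR-484, whose counts were whole numbers, went the other way on the TMM scale. Its log2 ratio was -0.13 (-0.19 to -0.08) for miR-1 to control, -0.20 (-0.25 to -0.14) for miR-122 to control and -0.06 (-0.12 to -0.01) for miR-122 to miR-1. The last turned to 0.17 when the induced miRNAs entered the scaling, where the median of endogenous miRNAs was 0.22. Among the 514 endogenous miRNAs, 34.6, 37.4 and 44.2% lay below miR-484 in these comparisons.

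The miR-320 family was compared with miR-484 inside each library, which needs no scaling. Family counts were 1.32 times those of miR-484 in the control (interval 1.28 to 1.37), 1.58 times in the miR-1 library (1.53 to 1.64) and 1.91 times in the miR-122 library (1.85 to 1.98). The ratio was thus 1.20-fold higher in the miR-1 than in the control library (1.14 to 1.26), 1.45-fold higher in the miR-122 than in the control library (1.38 to 1.52) and 1.21-fold higher in the miR-122 than in the miR-1 library (1.15 to 1.27). The members ascribed to the same capped route therefore differed from each other between libraries, beyond counting error, by amounts that cannot be told apart from differences between single cultures.

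**Figure D2:**
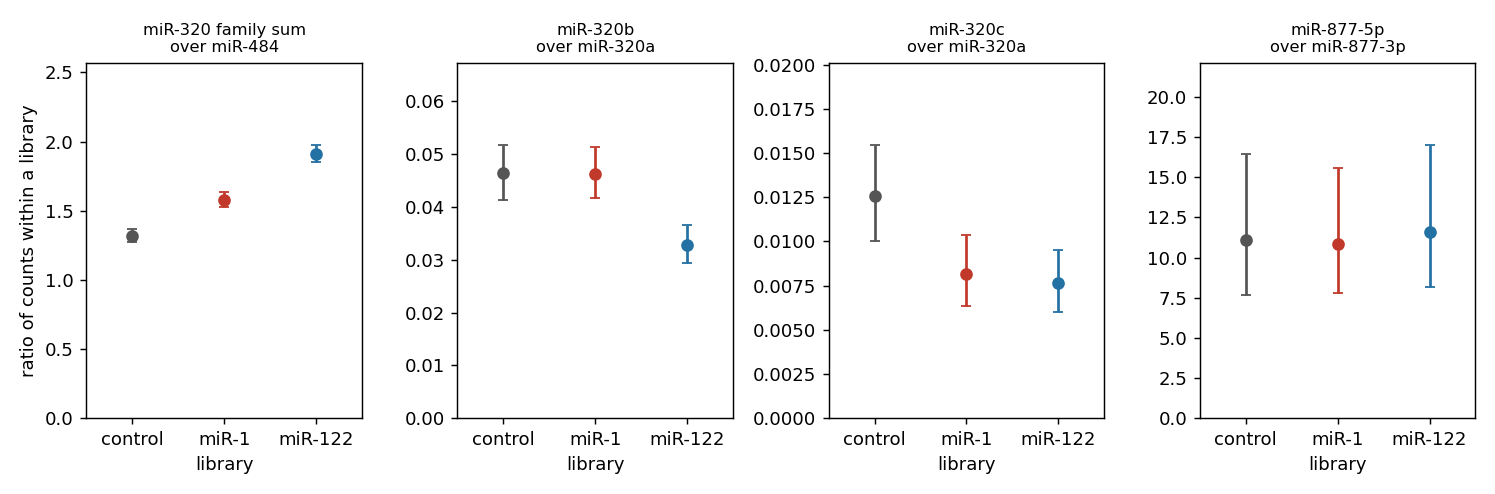
Ratios of counts taken inside each of the 3 libraries (miR-320 family over miR-484, miR-320b and miR-320c over miR-320a, miR-877-5p over miR-877-3p) on linear axes that start at 0, 1 point per library with 95% counting intervals. The miR-320 family over miR-484 was 1.32 in the control, 1.58 in the miR-1 and 1.91 in the miR-122 library, with intervals that do not overlap.

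The mirtron miR-877-5p differed little between libraries on the TMM scale. Its log2 ratio was 0.13 (-0.08 to 0.34) for miR-1 to control, -0.00 (-0.21 to 0.21) for miR-122 to control and -0.13 (-0.33 to 0.07) for miR-122 to miR-1, so all 3 intervals held equal levels and reached at most 0.34 in size. With the induced miRNAs in the scaling, the first 2 became -0.60 (-0.81 to -0.39) and -0.50 (-0.71 to -0.29), against medians of -0.73 and -0.53 over the endogenous miRNAs, and the last became 0.10. Inside the libraries, the miR-320 family held 21.04 counts for each count of miR-877-5p in the control, 20.97 in the miR-1 and 26.6 in the miR-122 library, a miR-122 to control change of 1.27-fold (1.09 to 1.46). miR-484 held 15.9, 13.3 and 13.9 for each, and the miR-1 ratio was 0.833 of the control's (0.719 to 0.964), while for miR-122 it was 0.874 of it (0.753 to 1.01).

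Both arms of the ABCF1 mirtron were counted. The partner arm miR-877-3p had 32, 38 and 34 counts. The 5′ arm outnumbered it 11.1 times in the control, 10.9 times in the miR-1 and 11.6 times in the miR-122 library. That arm ratio stood at 0.982 of the control's in the miR-1 library (0.581 to 1.65) and at 1.05 times it in the miR-122 library (0.613 to 1.79).

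miR-1226-3p was at 0.00 (-1.15 to 1.17), 0.03 (-1.10 to 1.18) and 0.02 (-1.08 to 1.15) in the same order of comparisons. The point values were close to equal, but the intervals reach past a 2-fold difference on either side, so such a difference was not detectable at this depth. Its other arm, miR-1226-5p, had 1, 2 and 6 counts.

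For miR-451a, 10 counts in the miR-122 library against 4 in the control gave a log2 ratio of 1.06 (-0.63 to 3.29), and 1 count in the miR-1 library against 4 gave -1.68 (-7.72 to 1.24). The miR-122 to miR-1 ratio was 6.69-fold (1.36 to 415) and rests on that 1 count. With a pseudocount of 5 in place of 0.5 these log2 values became 0.58, -0.68 and, for miR-122 to miR-1, 1.26 in place of 2.74. The erythroid miRNA was thus at or near the limit of detection in these kidney-derived cells in every library.

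**Figure D3:**
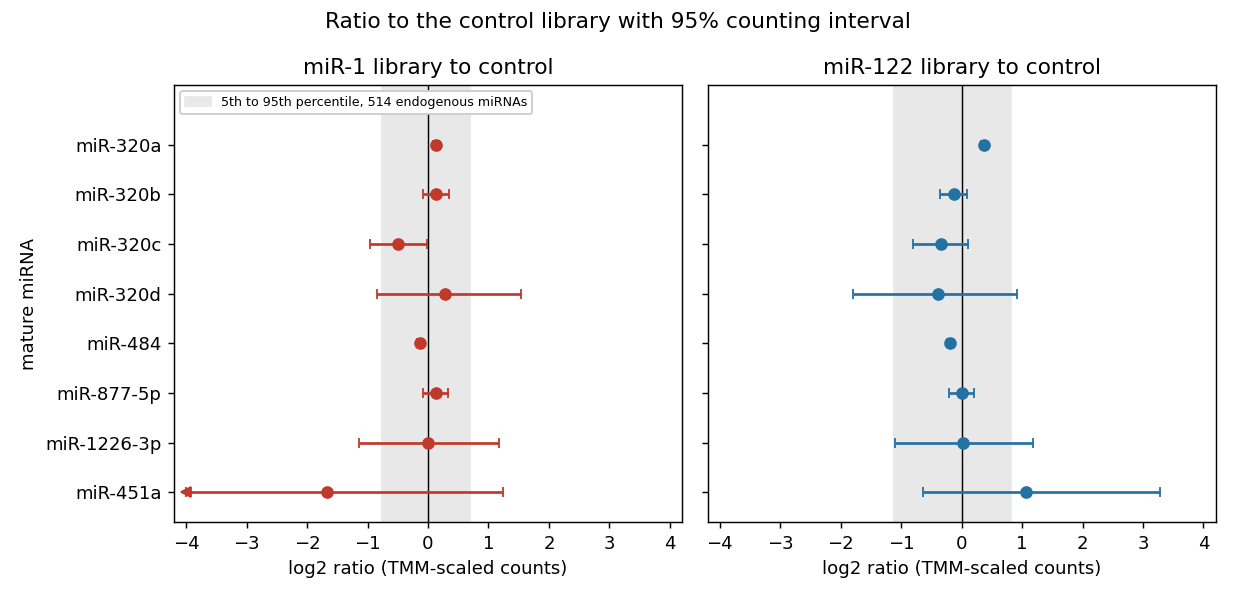
Log2 ratio of the miR-1 and of the miR-122 library to the control library for the 8 members with a count, with 95% counting intervals on TMM-scaled counts, and in grey the 5th to 95th percentile of 514 endogenous miRNAs. miR-320a lies above 0 in both panels (0.13 and 0.36, which turn to -0.60 and -0.13 when induced miRNAs enter the scaling), miR-484 lies below 0 in both, and the 3 rarest members have intervals wider than 2-fold.

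Of the 9 members, 7 averaged 10 or more counts over the libraries, and miR-320e and miR-451a did not. None of the 7 was 2-fold or more apart in any comparison, where 3.31% of the 514 endogenous miRNAs were between miR-1 and control, 9.73% between miR-122 and control, and 8.56% were apart between miR-122 and miR-1. At these shares less than 1 of 7 would be called, so the absence of such members is not a result about them. The counting interval excluded equal levels for 3 of the 7 between miR-1 and control (1 above, miR-320a, and 2 below, miR-320c and miR-484). It did so for 2 between miR-122 and control (miR-320a above, miR-484 below), and for 3 between miR-122 and miR-1 (miR-320a above, miR-320b and miR-484 below). Of the last 3, the miR-320b call was lost as described above, and that of miR-484 was lost with median-of-ratios scaling, at -0.05 (-0.11 to 0.00), and turned in direction with the induced miRNAs in the scaling. Over the 514 the shares were 34.4, 47.1 and 39.3%, so the members were near the background in each.

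The median log2 ratio of the 7 was 0.13, -0.13 and -0.06, against -0.00, -0.04 and -0.01 over the 514. Their values ran from -0.49 to 0.28, from -0.39 to 0.36 and from -0.66 to 0.23. The 5th and 95th percentiles of the 514 were -0.75 and 0.69 for miR-1 to control and -1.11 and 0.82 for miR-122 to control, so every one of the 7 lay inside that range in both. The sum of all 9 members was at 0.02 (-0.01 to 0.06), 0.13 (0.10 to 0.16) and 0.11 (0.08 to 0.14).

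**Figure D4:**
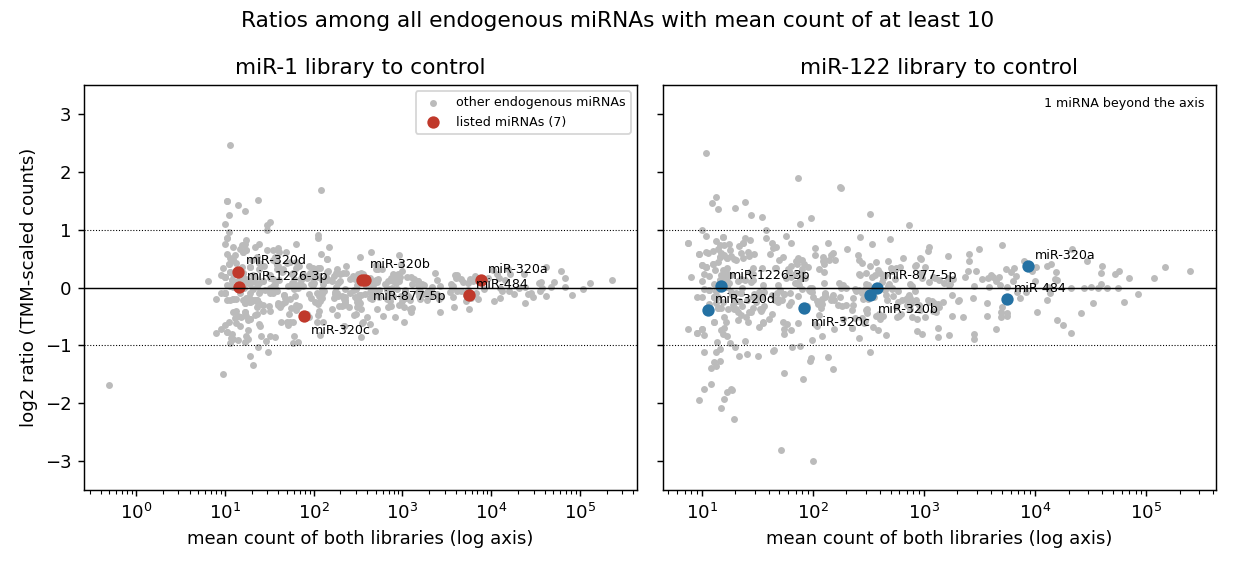
Log2 ratio to the control library against mean count on a log axis for endogenous miRNAs (grey) and the members (coloured), for the miR-1 and the miR-122 library. The 7 members with a mean count of at least 10 lie within the cloud of miRNAs of like count, between -0.49 and 0.28 in the miR-1 panel and between -0.39 and 0.36 in the miR-122 panel.

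The other listed mirtron arms held at most 38 counts in any library. Of 22 such arms in the table, 11 had 0 counts in all libraries, 11 had at least 1 count, and 2 had a mean of at least 10. Of all 2580 endogenous miRNAs, 1351 had at least 1 count and 514 a mean of at least 10. The share of arms with a count was thus near the background and is not a result about mirtrons. miR-451b, which is no mirtron, was listed with them and had 0 counts in every library. The arms that passed were miR-877-3p and miR-1224-5p, the latter from a short intron of VWA5B2, with 11, 16 and 19 counts and log2 ratios of 0.43 (-0.75 to 1.70) and 0.60 (-0.52 to 1.85) to the control. Of the mirtron arms listed, miR-877-5p was thus the only one above 38 counts in any library. Besides miR-877 and miR-1226, the list held miR-1224, miR-1225, miR-1227, miR-1228, miR-1229, miR-1231, miR-1233, miR-1234, miR-1236, miR-1237 and miR-1238. It is no survey of mirtrons, since MIR3620 and MIR3621, which also covered whole introns, were not on it.

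Intronic miRNAs that are cut by Drosha and Dicer were set beside the mirtrons, which also come from introns. They were miR-103a-3p, miR-107, miR-25-3p, miR-93-5p, miR-106b-5p, miR-26a-5p, miR-26b-5p, miR-186-5p, miR-30e-5p, miR-30c-5p, miR-148b-3p, miR-128-3p, miR-15b-5p, miR-16-5p, miR-152-3p, miR-98-5p and miR-140-3p. All 17 listed were measured, and their median log2 ratio was -0.13 for miR-1 to control and -0.34 for miR-122 to control, with 0 of 17 at 2-fold. They ran from miR-98-5p at -0.50 to miR-152-3p at 0.28 in the former, and from miR-30e-5p at -0.78 to miR-25-3p at 0.29 in the latter. miR-877-5p, at 0.13 and -0.00, lay inside both ranges.

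The 3 endogenous miRNAs whose pair of ratios to the control lay nearest to that of miR-320a, among 263 with a mean count of at least 100, were miR-296-3p, miR-126-3p and miR-501-3p, at distances of 0.024, 0.032 and 0.038 on the log2 scale. For miR-484 they were miR-10a-3p, miR-582-5p and miR-598-3p, at 0.018, 0.025 and 0.034. The likeness is over 3 libraries that share 1 control and is a description.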

How the data were processed

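Libraries were prepared from 1000 ng of total RNA with the NEBNext Small RNA kit. According to the methods of the study, reads were processed with miRDeep2 (version not given in the sources used here): adapters were trimmed, reads under 18 nt were dropped, identical reads were collapsed, and reads were counted on the miRBase release 21 hairpins together with the synthetic hairpins. The authors deposited estimated counts, in which a read matching several hairpins is divided among them, and RPM values whose total includes the induced miRNAs. A deposited pooled total was not used.

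Counts were summed over hairpins for each mature miRNA. Scaling was TMM (edgeR 4.0.16, R 4.3.3) over 514 endogenous miRNAs whose counts averaged 10 or more. Log2 ratios used a pseudocount of 0.5. Intervals (95%) were exact Clopper-Pearson on rounded counts, Wilson for shares and Poisson for levels. Intervals of ratios inside a library were exact Clopper-Pearson at all counts. Those of changes in such ratios between libraries were exact conditional where every count was below 1000. Otherwise they were a normal approximation on the log scale. A call was a 2-fold difference, or an interval without equal levels. The ratios were tested on simulated data that held counting error alone, so that test says nothing about spread between cultures or divided reads. Libraries were grouped by their labels, and all 3 pairs were compared. Named miRNAs were the members, the extremes of each list and the 3 nearest patterns of miR-320a and miR-484. The members and lists were chosen with earlier results of these data known. Alternatives were other scalings, pseudocounts, filters, folds and denominators.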

Additional observations from a re-analysis of the deposited data

How the results depend on the processing

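For 39 results, 231 alternatives and 3 more chosen after seeing the data were computed. Of these, 191 gave a value inside the counting interval of the reported one (for counts of miRNAs, within 1.5 times it). Another 38 gave one outside, and 5 reversed a ratio whose interval had excluded equal levels. Sign changes of ratios whose interval held equal levels are not among the 5. With the induced miRNAs in the scaling, miR-877-5p changed sign in this way for miR-1 to control and for miR-122 to miR-1. Calls by the interval that were lost among the 191 are given with miR-320b, miR-320c and miR-484 above, and the pseudocount of 5 for miR-451a likewise. Scaling by all miRNA counts, induced miRNAs included, placed the median endogenous miRNA at -0.73 for miR-1 to control, at -0.53 for miR-122 to control and at 0.22 for miR-122 to miR-1. In that order it gave -0.60, -0.16 and 0.45 for the miR-320 family (the first 2 reversed), -0.86, -0.69 and 0.17 for miR-484 (the last reversed), -0.60, -0.50 and 0.10 for miR-877-5p, and, reversed, -0.60 and -0.13 for hsa-miR-320a to control. It also placed 108 (miR-1) and 101 (miR-122) endogenous miRNAs and 1 member (miR-1) at 2-fold to control, as the induced counts enter the totals. Scaling by endogenous totals gave 0.25 (miR-122 to control) and 0.16 (miR-122 to miR-1) for the miR-320 family, and -0.29 and -0.12 for miR-484. A limit of 1.5-fold called 86, 139 and 119 endogenous miRNAs in the 3 comparisons, and 1 member in miR-122 to miR-1. A pseudocount of 5 left 7 (miR-1 to control) and 27 (miR-122 to miR-1) at 2-fold, and a mean count of at least 100 left 2, 10 and 8. Using the highest hairpin of each miRNA gave the members 0.941, 0.924 and 0.965% of endogenous counts (control, then miR-1, then miR-122). With all miRNA counts as the denominator the shares were 0.504 (miR-1) and 0.638% (miR-122). Taking miR-320a alone in place of the family, an alternative chosen after seeing the data, gave 1.25, 1.497 and 1.84 over miR-484 in the 3 libraries. Apart from the constructed differences named here, the cause was not tested.

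No paired analysis was possible because there was only 1 library in each group, and for the same reason no replicate was left out. Counts of at most 16, as for miR-1226-3p, miR-320d and miR-451a, limit detection to differences of more than 2-fold.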

Other observations

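Few other miRNAs among the RefSeq entries searched carried a member's seed. miR-4429 has the seed AAAGCUG of miR-320b, miR-320c and miR-320d, and it had 0 counts in the control, 1 in the miR-1 and 0 in the miR-122 library. miR-3155a has the seed CAGGCUC of miR-484 and had 8, 3 and 3 counts, and miR-3155b, with the same seed, had 0 in each. Among RefSeq entries, no other mature miRNA shared a seed with miR-484, and the counts of both seeds thus came almost entirely from the members.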
